A study of Homo sapiens with 10 samples.

Results

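The genes described are 10 enzymes that make, interconvert or activate androgens: SRD5A1, SRD5A3, AKR1C1, AKR1C2, AKR1C3, HSD17B2, HSD17B4, HSD17B6, HSD3B1 and STS. They were chosen by name as rows of a table of 60642 gene symbols, and all 10 were found. RNA was sequenced in bulk from 10 samples, 2 biological repeats of each of 5 untreated lines of human prostate cancer: LNCaP, PC3, DU145, VCAP and DUCAP. All lines grew in medium with fetal bovine serum, so none was deprived of the steroids that serum carries. Each line stands for 1 established tumour line, and DUCAP and VCAP were derived from the same patient. In bulk RNA, fewer cells that express a gene and less RNA per cell cannot be told apart.

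Androgens are built from cholesterol in the gonads and adrenal glands, and prostate cells further convert the precursors that reach them in blood. Precursors circulate largely as sulfates, which STS cleaves, and HSD3B1 and the AKR1C and HSD17B enzymes then shift the steroid between weaker and stronger forms. SRD5A1 turns testosterone into dihydrotestosterone, the most potent natural androgen, and AKR1C2 reduces dihydrotestosterone further to a weak androgen. A transcript level does not give enzyme activity, and no steroid was measured here.

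AKR1C1, AKR1C2 and AKR1C3 lie side by side on chromosome 10 (build GRCh38.p14), at 4963415 to 4983283, 4987775 to 5018000 and 5048781 to 5107686. Their sequences are shown because reads of near-identical genes can be divided between them only by estimation, which touches every AKR1C1 and AKR1C2 value below. The coding sequences of AKR1C1 and AKR1C2 differed at 19 of 972 aligned bases (98.0% identical), while AKR1C3 was 91.5% identical to AKR1C1 and 91.0% to AKR1C2. Of all stretches of 100 bases in the AKR1C1 coding sequence, 19.1% also occurred unchanged in AKR1C2 and 2.18% in AKR1C3. Coding bases 73 to 162, counted from 1 at the start codon, are given below for 1 annotated transcript of each gene, from GENCODE. They were chosen as the 90 bases where AKR1C1 and AKR1C2 differ most. Capitals mark bases that differ from AKR1C1, 10 in AKR1C2 and 11 in AKR1C3. Over the whole coding sequence AKR1C3 differs from AKR1C1 at 83 bases and AKR1C2 at 19.
AKR1C1: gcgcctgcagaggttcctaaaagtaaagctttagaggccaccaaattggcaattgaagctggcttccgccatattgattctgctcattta
AKR1C2: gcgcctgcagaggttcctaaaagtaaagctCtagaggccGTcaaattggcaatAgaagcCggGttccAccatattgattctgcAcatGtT
AKR1C3: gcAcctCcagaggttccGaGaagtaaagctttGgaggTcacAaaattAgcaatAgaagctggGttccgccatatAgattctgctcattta

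The 250 bases before 1 annotated start of each gene are shown because these neighbours with different levels across lines are also alike there. They are from RefSeq on GRCh38.p14, with capitals again marking differences from AKR1C1. AKR1C1 and AKR1C2 shared all but 1 of 246 aligned bases upstream (99.6%), and AKR1C1 and AKR1C3 shared 78.6%. The window of AKR1C1 is chr10:4963165-4963414 on the plus strand, that of AKR1C2 chr10:5003858-5004107 on the minus strand, and that of the second annotated start of AKR1C3 chr10:5094164-5094413 on the plus strand. The windows of AKR1C2 and AKR1C3 lie inside the gene spans given above, and the first annotated start of AKR1C3 was not compared.
AKR1C1: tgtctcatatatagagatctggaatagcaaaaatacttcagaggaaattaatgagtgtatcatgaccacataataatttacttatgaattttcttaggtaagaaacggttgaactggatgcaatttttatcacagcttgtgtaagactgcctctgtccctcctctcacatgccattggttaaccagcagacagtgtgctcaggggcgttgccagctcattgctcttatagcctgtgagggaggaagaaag
AKR1C2: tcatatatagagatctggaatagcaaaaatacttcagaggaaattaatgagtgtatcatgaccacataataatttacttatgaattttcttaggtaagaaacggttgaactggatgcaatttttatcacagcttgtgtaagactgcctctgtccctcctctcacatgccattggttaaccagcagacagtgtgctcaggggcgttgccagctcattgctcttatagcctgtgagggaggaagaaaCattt
AKR1C3: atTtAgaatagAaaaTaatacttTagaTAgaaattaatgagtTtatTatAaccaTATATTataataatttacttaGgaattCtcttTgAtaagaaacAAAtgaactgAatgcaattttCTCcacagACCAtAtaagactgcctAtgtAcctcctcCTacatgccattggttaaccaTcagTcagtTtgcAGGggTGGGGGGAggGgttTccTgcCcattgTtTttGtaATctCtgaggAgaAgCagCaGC

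RefSeq promoter windows, 250 bases before to 50 after a start, were at hand for 8 of the 10 genes, and were searched on both strands. TATAAA, the TATA box, occurred in 11.5% of all 35116 windows, and among the members in 1 window of STS and 1 of AKR1C3, that of its first annotated start, which is not printed above. GGGCGG, the GC box, occurred in 45.0% of all windows, and in windows of SRD5A1, SRD5A3, HSD17B4 and STS. TGACNNNGC, the core of the antioxidant response element, occurred in 13.3%, and in windows of SRD5A3 and STS. TGANTCA, the AP-1 site, occurred in 7.71%, and in SRD5A3 alone among the members. No window of AKR1C1, AKR1C2 or HSD3B1 held any of these letter strings, which says nothing about the factors that bind there.

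Levels are in TPM, a measure of transcript abundance that scales reads by transcript length and by the total of each sample, so levels of different genes can be set side by side. TPM keep no sequencing depth, so no counting error can be given, and errors are SDs over the 2 repeats. Keratins KRT8 and KRT18 and EPCAM, epithelial markers, were at 23.43 TPM or more in every sample, and the leukocyte, endothelial and fibroblast markers PTPRC, PECAM1 and COL1A2 at 0.43 or less. COL1A1, the other fibroblast marker, reached 31.51 and 38.02 TPM in PC3. Of the luminal prostate markers, KLK2 and KLK3 were at 0.77 TPM or less in DU145 and PC3. FOLH1 was at 0.27 or less in DU145, at 4.97 and 40.93 in the 2 repeats of PC3 and at 1.77 and 1.99 in DUCAP. The mitochondrial share of TPM was 32.1 to 36.0% in DUCAP and VCAP and 12.7 to 22.5% in the other lines, which lowers the TPM of all other genes in DUCAP and VCAP. Differences of the enzymes, and of the other genes named, are therefore also given after rescaling where that changed a call or the direction of a called value, and the part of the mitochondrial share in the other differences was not tested.

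Across the 5 lines the enzymes formed distinct combinations. LNCaP held the most SRD5A3 with high SRD5A1 and almost no AKR1C3, DUCAP and VCAP held the most AKR1C3 with little SRD5A1, and VCAP held the most HSD17B6. DU145 held the most SRD5A1, DU145 and PC3 held more AKR1C1 than the other lines, and PC3 was the line with HSD17B2. Of the 10 enzymes, 9 reached 1 TPM in at least 2 samples and were tested, and HSD3B1 did not. HSD17B2 entered the test through PC3 alone, and the other 8 differed among the lines by limma's moderated F test on log2(TPM + 1), with Benjamini-Hochberg adjusted p from 2.7e-06 to 0.012. This carries little, since 90.8% of the 17520 genes tested also did.

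**Figure D1:**
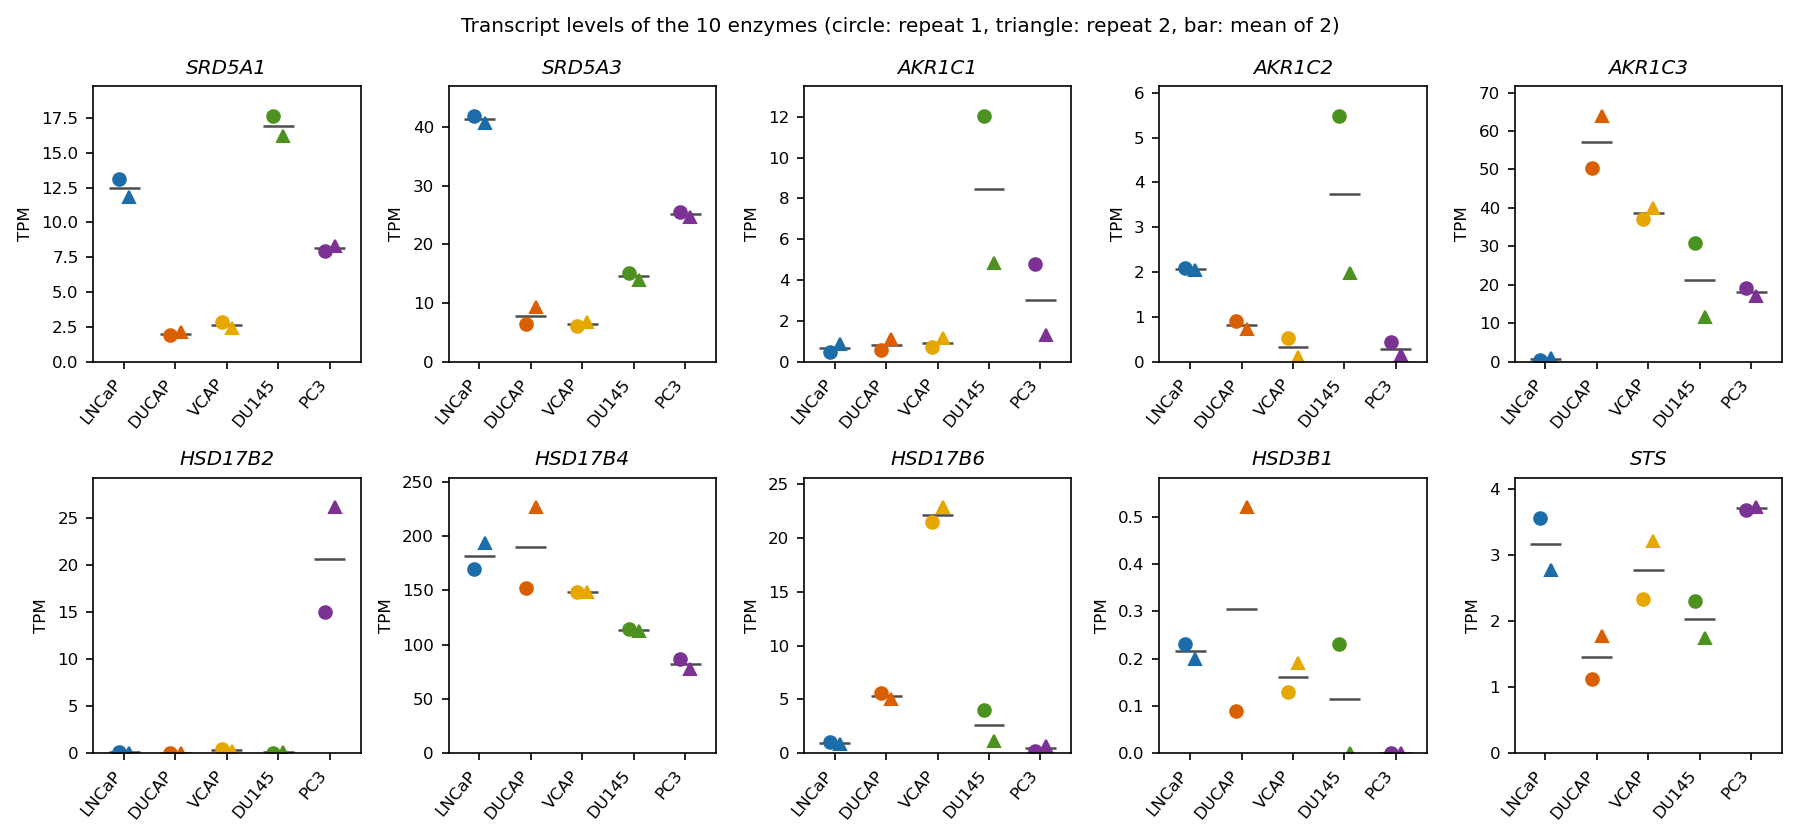
Transcript level in TPM (y axis, from 0, a separate scale per gene) of the 10 enzymes in the 5 cell lines (x axis), with repeat 1 as circles, repeat 2 as triangles and the mean of the 2 as a bar. AKR1C3 is near 0 in LNCaP alone, HSD17B2 is above 0.4 in PC3 alone and HSD3B1 stays at 0.52 or less.

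The entry steps came first. STS, the sulfatase that frees steroids from their sulfates (chromosome X, 7147290 to 7354641), was low and fairly even. PC3 read 3.69 and 3.73 TPM, LNCaP 3.56 and 2.77, VCAP 2.34 and 3.21, DU145 2.31 and 1.75, and DUCAP 1.13 and 1.78. The ratio of the highest to the lowest line mean was 2.55, for PC3 (3.71 ± 0.0283, SD, n = 2) over DUCAP (1.46 ± 0.460), and the repeats of LNCaP overlapped those of VCAP, as did those of DU145 and DUCAP. PC3 exceeded DU145 by 0.64 on the log2(TPM + 1) scale (SE 0.20, limma adjusted p = 0.029), a call lost without DU145 repeat 2 (adjusted p = 0.11), without PC3 repeat 1 (0.10) or repeat 2 (0.11), with no filter (0.064) and on rescaling without mitochondrial genes (0.057).

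HSD3B1, which converts dehydroepiandrosterone to androstenedione, was below 1 TPM in every sample (chromosome 1, 119507203 to 119515058). Its repeats read 0.09 and 0.52 TPM in DUCAP, 0.23 and 0.20 in LNCaP, 0.13 and 0.19 in VCAP and 0.23 and 0 in DU145, and both repeats of PC3 were listed at 0. The DUCAP repeats spanned all values of LNCaP and VCAP, so these lines were not ordered. HSD3B1 failed the filter on low values, and fitted without that filter it passed none of the 4 contrasts, the nearest with an adjusted p of 0.14 (limma).

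Among the reductases, SRD5A1, which makes dihydrotestosterone (chromosome 5, 6633440 to 6674386), fell in steps between lines. It read 17.67 and 16.18 TPM in DU145, 13.09 and 11.79 in LNCaP, 7.97 and 8.34 in PC3, 2.87 and 2.45 in VCAP, and 1.90 and 2.13 in DUCAP. No neighbours in that order overlapped, and DU145 (16.9 ± 1.05, SD, n = 2) stood 8.40 times above DUCAP (2.02 ± 0.163). The last step, DUCAP against VCAP, did not pass the test (-0.28 on the log2(TPM + 1) scale, limma adjusted p = 0.25).

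SRD5A3, best known as the polyprenol reductase that supplies dolichol for N-glycosylation (chromosome 4, 55346242 to 55373100), had another order. It read 41.99 and 40.73 TPM in LNCaP, 25.52 and 24.77 in PC3, 15.09 and 14.01 in DU145, 6.41 and 9.28 in DUCAP, and 6.11 and 6.78 in VCAP. Only DUCAP and VCAP overlapped, and LNCaP (41.4 ± 0.891, SD, n = 2) stood 6.42 times above VCAP (6.45 ± 0.474). Within samples the log2 ratio of SRD5A1 to SRD5A3, each with 1 TPM added, averaged 0.21 in DU145 and -1.66 to -1.03 in the other lines. Without the added 1 TPM, where the ratio does not depend on the scaling between samples, it averaged 0.22 in DU145, -1.28 in VCAP, -1.63 in PC3, -1.74 in LNCaP and -1.94 in DUCAP. SRD5A1 was the higher of the pair in both repeats of DU145 and in no sample of the other lines.

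AKR1C3, the reductase that turns androstenedione into testosterone, had the widest spread of the enzymes detected in every sample. DUCAP read 50.31 and 64.02 TPM, VCAP 37.24 and 40.03, DU145 30.78 and 11.73, PC3 19.19 and 17.15, and LNCaP 0.52 and 0.97. The repeats of DU145 spanned those of PC3, and the other neighbours were apart. The mean in DUCAP (57.2 ± 9.69, SD, n = 2) was 76.7 times that in LNCaP (0.745 ± 0.318).

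AKR1C1, which chiefly inactivates progesterone, was low in LNCaP, DUCAP and VCAP, at 0.50 to 1.17 TPM with overlapping repeats. It read 12.06 and 4.85 in DU145 and 4.77 and 1.30 in PC3, above all 6 samples of the other lines. AKR1C2, which reduces dihydrotestosterone to a weak androgen, read 5.49 and 1.98 TPM in DU145 and 2.10 and 2.05 in LNCaP. DUCAP was lower with 0.90 and 0.72, as were VCAP with 0.53 and 0.11 and PC3 with 0.43 and 0.14. DU145 and LNCaP overlapped, and so did VCAP and PC3. AKR1C1 plus AKR1C2 summed to 17.55 and 6.83 TPM in DU145, 5.20 and 1.44 in PC3, 2.60 and 2.91 in LNCaP, 1.46 and 1.84 in DUCAP, and 1.24 and 1.28 in VCAP. DU145 lay above every other sample, while the PC3 repeats spanned those of LNCaP and DUCAP. The sum still depends on how reads were divided, since TPM scale by length and the annotated transcripts compared here have 6543 and 3215 bases. AKR1C3 made up 97.2% of the summed TPM of the 3 AKR1C enzymes in DUCAP, 96.8% in VCAP, 85.5% in PC3, 63.5% in DU145 and 20.8% in LNCaP.

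**Figure D2:**
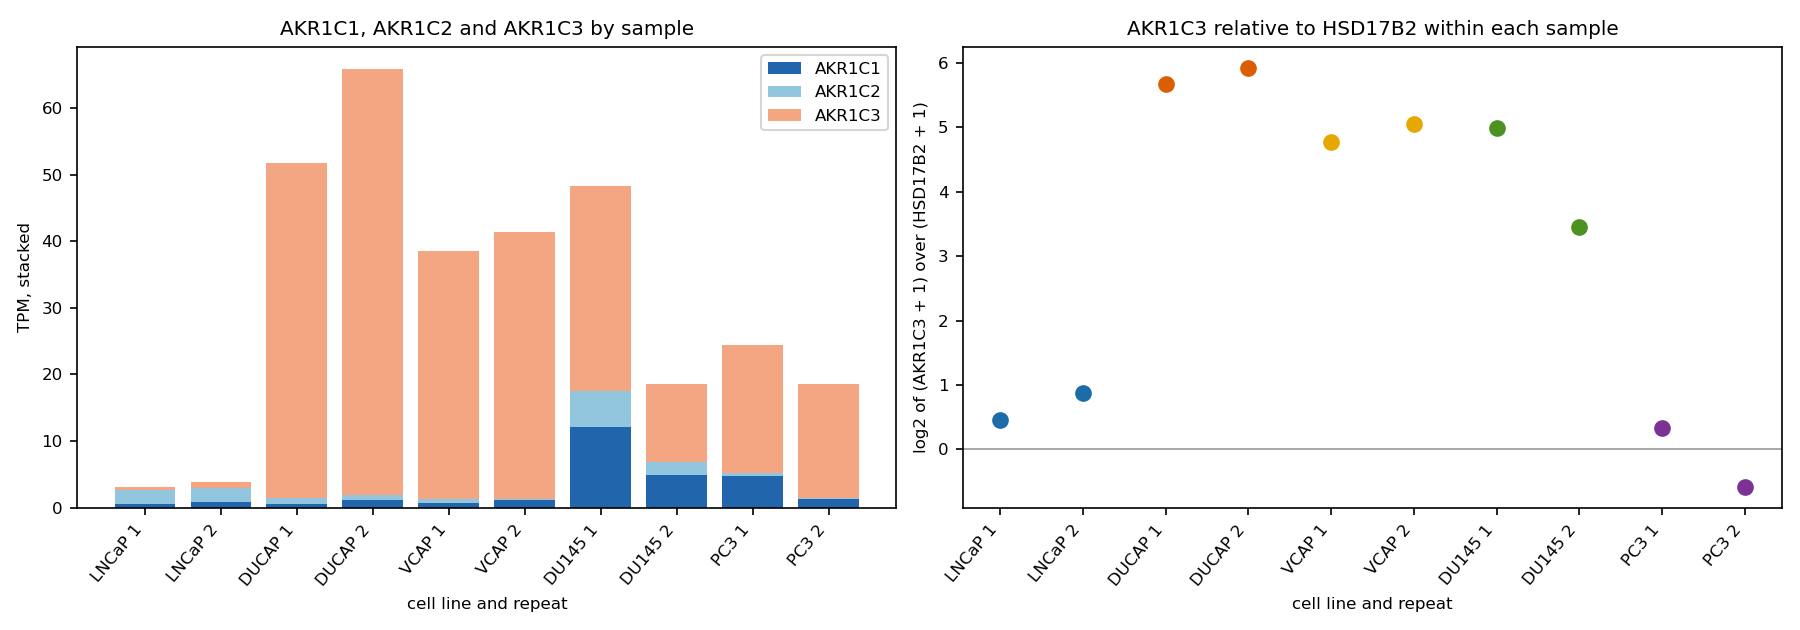
Left, TPM of AKR1C1, AKR1C2 and AKR1C3 stacked from 0 in each sample (x axis, line and repeat). Right, log2 of AKR1C3 + 1 over HSD17B2 + 1 in each sample, which averages 5.80 in DUCAP, 4.91 in VCAP, 4.22 in DU145, 0.67 in LNCaP and -0.12 in PC3.

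HSD17B2, which oxidises testosterone back to androstenedione (chromosome 16, 82035253 to 82098534), read 15.01 and 26.15 TPM in PC3. In the other 8 samples it lay between 0 and 0.40 TPM, with LNCaP, DU145 and DUCAP overlapping. It entered the test through the 2 PC3 samples alone, so its differences against PC3 are a description. AKR1C3 and HSD17B2 catalyse opposite steps between androstenedione and testosterone. Their log2 ratio within a sample, each with 1 TPM added, averaged 5.80 in DUCAP and -0.12 in PC3. HSD17B2 was listed at 0 in DUCAP repeat 1 and DU145 repeat 1, so a ratio without the added 1 TPM does not exist there. LNCaP and PC3 both lay near 0 on this scale, LNCaP with both genes at 0.97 TPM or less and PC3 with both at 15.01 or more. The 2 lines were not alike without the added 1 TPM. LNCaP then had more AKR1C3 (0.52 and 0.97 TPM) than HSD17B2 (0.11 and 0.07), all near the floor.

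HSD17B4, a peroxisomal enzyme of fatty acid oxidation that also oxidises estradiol (chromosome 5, 119452497 to 119542332), was the most abundant of the 10 in every sample. It held 48.6 to 76.3% of their summed TPM. DUCAP read 152.29 and 226.79 TPM, LNCaP 169.47 and 193.85, VCAP 148.39 and 148.88, DU145 114.84 and 112.44, and PC3 86.84 and 77.68. DUCAP and LNCaP overlapped, and the ratio of the highest to the lowest line mean was 2.30.

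HSD17B6, which can convert the inactivated product back to dihydrotestosterone (chromosome 12, 56763324 to 56787790), was led by VCAP with 21.45 and 22.88 TPM. DUCAP read 5.62 and 5.05, DU145 4.01 and 1.16, LNCaP 1.04 and 0.86, and PC3 0.25 and 0.68. No neighbouring lines overlapped, and VCAP (22.2 ± 1.01, SD, n = 2) stood 47.7 times above PC3 (0.465 ± 0.304).

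The first contrast set DU145 and PC3 against LNCaP, DUCAP and VCAP, the grouping of the study, as the difference between the mean of 2 lines and the mean of 3. In all contrasts the p-values measure the spread between repeats of a line, not between the lines of a side. In the first, 4 of 9 enzymes were higher in DU145 and PC3 and 2 were lower, against 51.9% and 22.5% of all genes tested. The count includes HSD17B2, which passed the filter through PC3 alone, as does the count for PC3 against DU145. The median log2 difference was 0.31 over the 9 enzymes and 0.40 over all genes. SRD5A1 was higher by 1.28 (SE 0.096, limma adjusted p = 5.2e-06) and AKR1C1 by 1.65 (SE 0.31, adjusted p = 0.0013). HSD17B2 was higher by 2.05, which came from PC3 alone, since DU145 lay at 0 and 0.16 TPM. HSD17B4 was lower with a log2 difference of -0.82 (SE 0.12, adjusted p = 0.00028) and HSD17B6 at -1.59 (SE 0.23, adjusted p = 0.00024). In 2 of the 9, AKR1C1 and HSD17B4, the samples of the 2 sides did not overlap, which held for 26.7% of all genes. For AKR1C1 the nearest samples were PC3 repeat 2 at 1.30 TPM and VCAP repeat 2 at 1.17. Summed with AKR1C2 the sides overlapped, with 1.44 TPM in PC3 repeat 2 and 2.60 and 2.91 in LNCaP. SRD5A1 passed the test with overlapping sides, since LNCaP lay above PC3. HSD17B6 also passed with overlapping sides, since LNCaP (1.04 and 0.86 TPM) lay below both repeats of DU145 (4.01 and 1.16).

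SRD5A3 was higher by 0.52 (adjusted p = 0.0027), little more than the median of all genes, and the call was lost with median-ratio scaling (0.09, adjusted p = 0.40) and turned in sign with quantile normalization (-0.05, adjusted p = 0.68). Of all genes called, 69.8% were higher in DU145 and PC3, and 46.9% after quantile normalization, 52.1% after median-ratio scaling or 61.3% when rescaled without mitochondrial genes. AKR1C3 did not pass (0.31, adjusted p = 0.27). It passed without DU145 repeat 2 (0.64, adjusted p = 0.0034), was at -0.02 without DU145 repeat 1 (adjusted p = 0.90), and fell below 0 under quantile normalization (-0.27) and median-ratio scaling (-0.19). AKR1C2 was at 0.29 (adjusted p = 0.25) and also passed without DU145 repeat 2 (0.57, adjusted p = 0.0065). STS was at 0.17 (adjusted p = 0.28), and at -0.32, -0.15 and -0.0024 under quantile, median-ratio and mitochondria-free scaling.

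**Figure D3:**
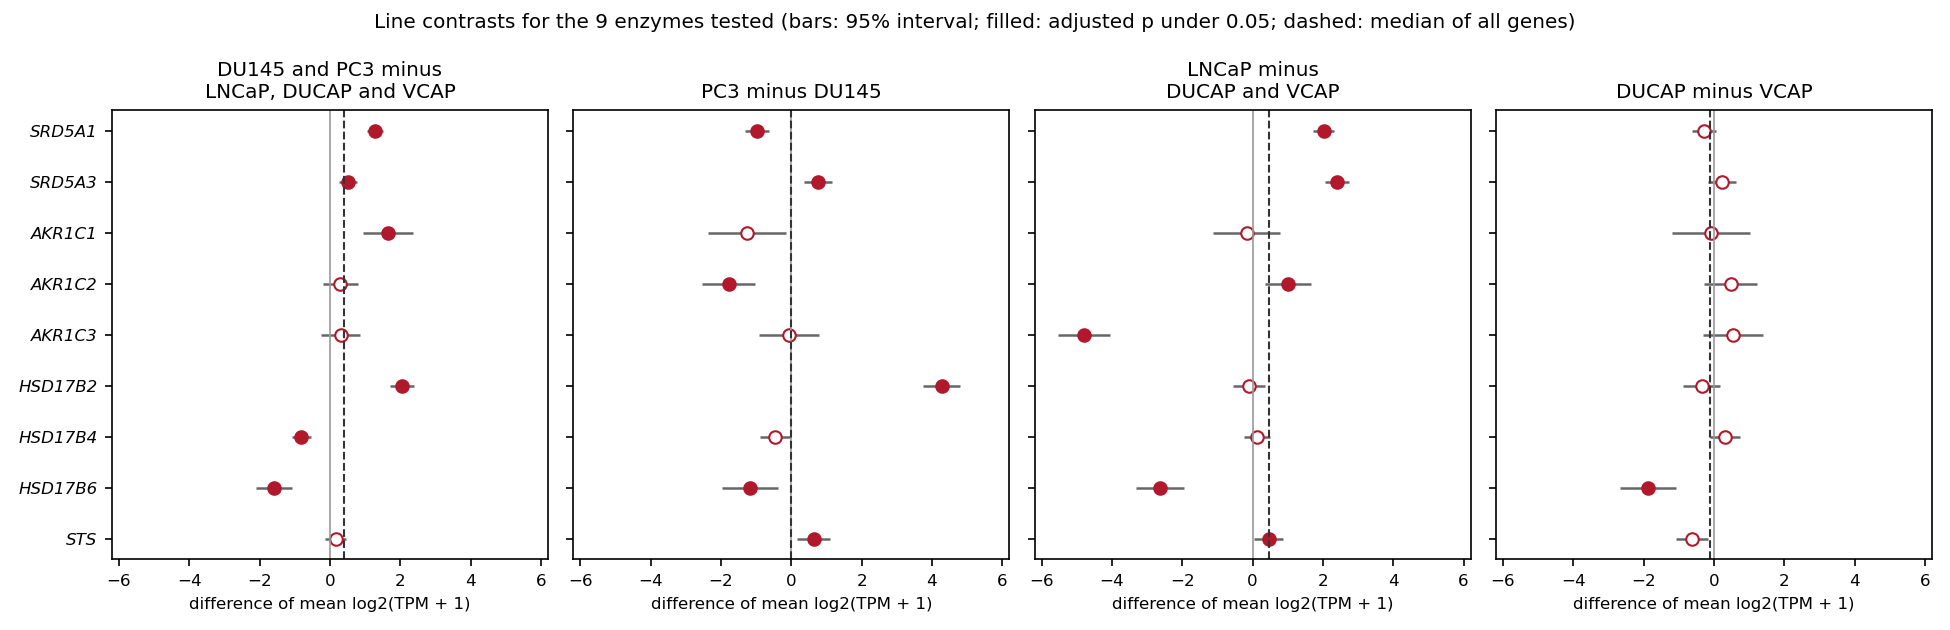
Difference of mean log2(TPM + 1) (x axis) for the 9 enzymes tested (y axis) in 4 contrasts, with 95% intervals, filled points at adjusted p under 0.05, and dashed lines at the median of all genes. AKR1C3 lies at -4.79 in LNCaP against DUCAP and VCAP, and HSD17B2 at 4.28 in PC3 against DU145.

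Between PC3 and DU145, 3 of 9 enzymes were higher in PC3 and 3 were lower, against 25.5% and 23.8% of all genes. The median was -0.46 over the enzymes and 0 over all genes. PC3 exceeded DU145 in SRD5A3 by 0.75 (SE 0.17, limma adjusted p = 0.0074), in STS as given above, and in HSD17B2 by 4.28 (SE 0.23). SRD5A1 was lower in PC3 at -0.97 (SE 0.15, adjusted p = 0.00092) and AKR1C2 at -1.78 (SE 0.33, adjusted p = 0.0026). HSD17B6 was lower at -1.18 (adjusted p = 0.022), a call lost without DU145 repeat 1 (adjusted p = 0.055), PC3 repeat 1 (0.14) or PC3 repeat 2 (0.054), and with no filter (0.055).

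AKR1C1 missed the threshold between PC3 and DU145 (-1.26, adjusted p = 0.059), and passed it without DU145 repeat 2 (0.022) or PC3 repeat 1 (0.021) and when summed with AKR1C2 (-1.63, adjusted p = 0.021). HSD17B4 also missed it (-0.46, 95% interval -0.89 to -0.04, adjusted p = 0.067), and passed under quantile normalization (-0.62), median-ratio scaling (-0.50) and mitochondria-free rescaling (-0.55), and without DUCAP repeat 1 or repeat 2 (adjusted p = 0.020 for each). AKR1C3 lay at -0.07 with an interval of -0.93 to 0.79, wide enough to hold nearly 2-fold differences either way. It stood at 0.59 without DU145 repeat 1 (adjusted p = 0.059), at 0.0055 without PC3 repeat 2, and at -0.73 without DU145 repeat 2, where it passed (adjusted p = 0.027).

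LNCaP differed from DUCAP and VCAP in 6 of 9 enzymes, 4 higher and 2 lower, against 49.2% and 15.5% of all genes. The median was 0.12 over the enzymes and 0.46 over all genes. AKR1C3 was lower in LNCaP at -4.79 (SE 0.32, limma adjusted p = 5.5e-06) and HSD17B6 at -2.64 (SE 0.30, adjusted p = 9.8e-05), both against the direction of the median gene. SRD5A3 was higher by 2.39 (SE 0.15, adjusted p = 3.8e-06) and SRD5A1 by 2.02 (SE 0.13, adjusted p = 4.2e-06). These 4 calls held under every alternative tried. Of all genes called, 76.1% were higher in LNCaP, and 51.0% after quantile normalization, 51.3% after median-ratio scaling or 66.6% when rescaled without mitochondrial genes.

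The remaining calls for LNCaP were less stable. AKR1C2 was higher by 1.00 (adjusted p = 0.015), which was lost under quantile normalization (adjusted p = 0.058), median-ratio scaling (0.077), summing with AKR1C1 (0.22), and without LNCaP repeat 1 (0.084) or repeat 2 (0.079). STS was higher by 0.46 (adjusted p = 0.049), about the median of all genes. That call was lost with the repeat number as a block (adjusted p = 0.066), and at -0.07 and -0.0049 under quantile normalization and median-ratio scaling the direction turned. It was also lost with a pseudocount of 0.1 (0.059), with no filter (0.098), on mitochondria-free rescaling (0.26), and without LNCaP repeat 1 (0.29) or 2 (0.069), PC3 repeat 1 or 2 (0.073 each), DUCAP repeat 1 (0.13) or VCAP repeat 1 (0.12). HSD17B4 was at 0.12 (adjusted p = 0.53), and passed as lower in LNCaP under quantile normalization (-0.44, adjusted p = 0.019) and median-ratio scaling (-0.53, adjusted p = 0.0077).

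DUCAP and VCAP, the lines of 1 patient, differed in 1 of 9 enzymes. None was higher in DUCAP and 1 was lower, against 4.24% and 14% of all genes, with medians of -0.08 over the enzymes and -0.12 over all genes. HSD17B6 was lower in DUCAP at -1.87 (SE 0.35, limma adjusted p = 0.0083). The difference was -1.94 without DUCAP repeat 1 (adjusted p = 0.052) and -1.81 without DUCAP repeat 2 (adjusted p = 0.056), so the call rested on both. HSD17B4 was at 0.32 (adjusted p = 0.28) and passed under median-ratio scaling (0.54, adjusted p = 0.039). AKR1C3 was at 0.54 with an interval of -0.31 to 1.40 and STS at -0.62 (adjusted p = 0.070). Of all genes called, 23.2% were higher in DUCAP, and 49.3% after quantile normalization, 45.8% after median-ratio scaling or 21.4% when rescaled without mitochondrial genes.

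The repeats of 1 line were not equally close. In DU145, 4 of 9 enzymes differed at least 2-fold between the repeats on the log2(TPM + 1) scale, against 9.48% of all genes: AKR1C1, AKR1C2, AKR1C3 and HSD17B6, each higher in repeat 1. In PC3, 1 did, AKR1C1, against 0.993% of all genes. None did in LNCaP, DUCAP or VCAP, where 0.942%, 0.902% and 2.12% of all genes were that far apart. SRD5A1, SRD5A3, HSD17B4 and STS were close in the DU145 repeats, so every DU145 value of the AKR1C enzymes and HSD17B6 carries a larger error than the rest. The limma fit shares its estimate of the spread over all lines, so the SEs and p-values of contrasts with DU145 do not show that larger error in full.

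**Figure D4:**
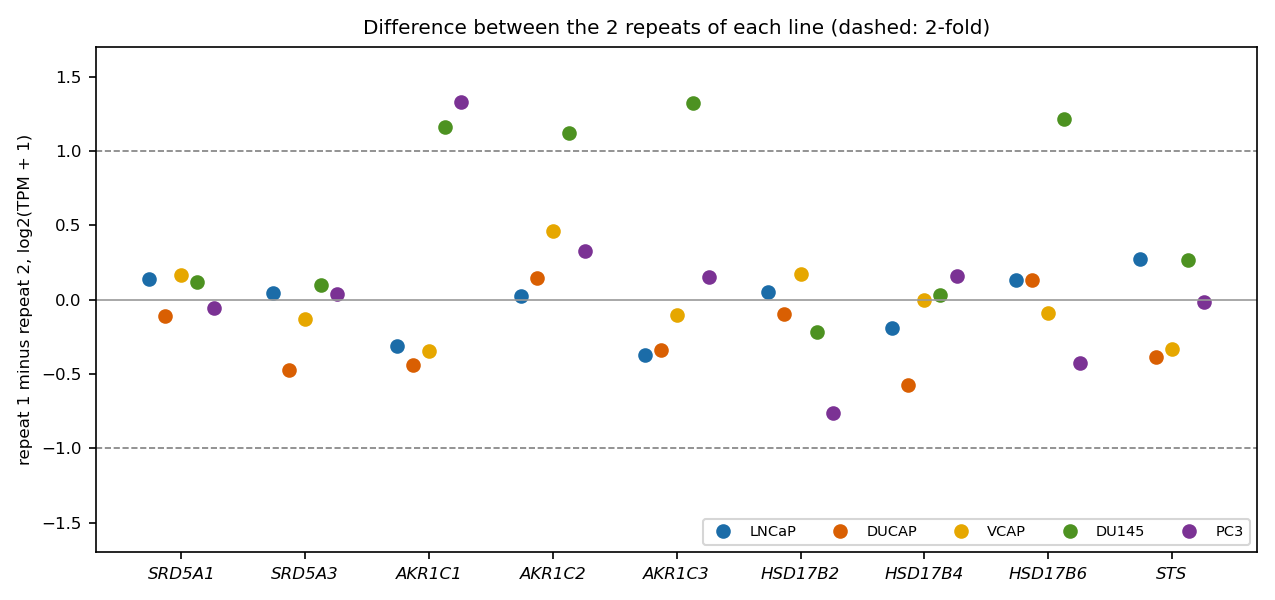
Repeat 1 minus repeat 2 in log2(TPM + 1) (y axis) for the 9 enzymes tested (x axis) in each line (colours), with dashed lines at 2-fold. AKR1C1, AKR1C2, AKR1C3 and HSD17B6 lie above the upper line in DU145, and AKR1C1 in PC3.

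Of 40 other genes of steroid metabolism in 3 lists, 24 were tested. CYP11A1, which cleaves the cholesterol side chain, was at 0.83 and 0.76 TPM in LNCaP and at 0.05 or less in the other lines. CYP17A1, which makes the androgen skeleton, was at 0.12 TPM or less in all samples and HSD3B2, the adrenal and gonadal partner of HSD3B1, at 0.03 or less. The reductase SRD5A2 stayed at 0.01 TPM or less and HSD17B3, the testicular enzyme that makes testosterone, at 0.38 or less. In all, 5 of 11 genes of synthesis from cholesterol, 7 of 19 other oxidoreductases and 3 of 10 genes of the sulfate cycle were below 1 TPM in every sample. HSD11B1 and SULT2A1 were listed at 0 in all 10.

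**Figure D5:**
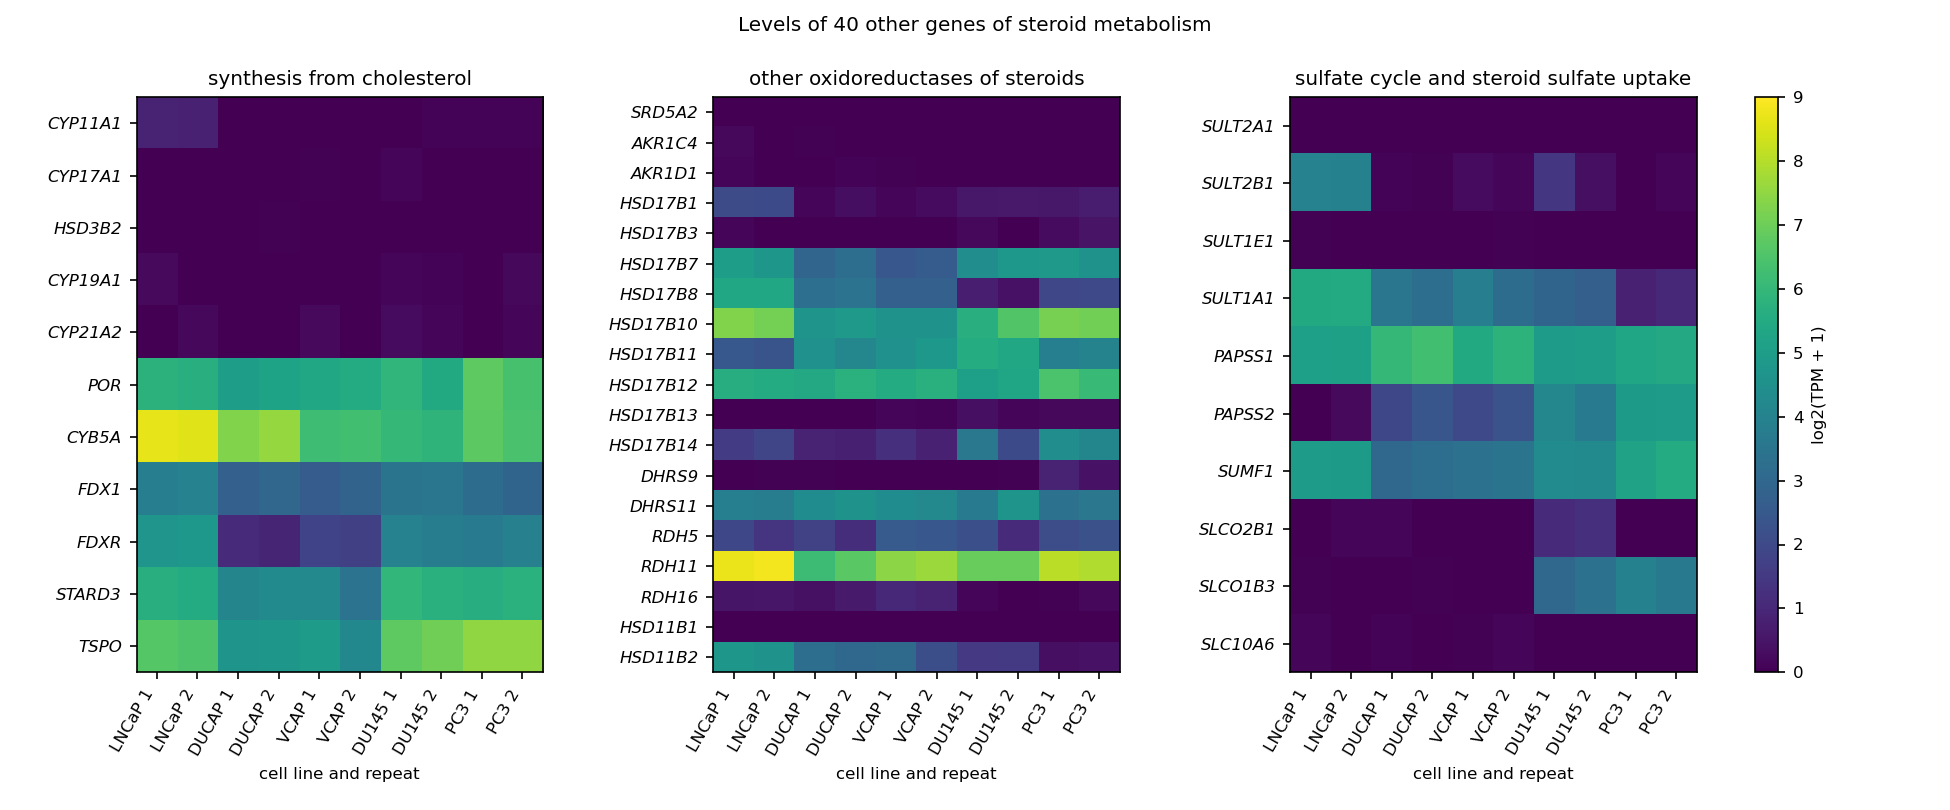
Colour gives log2(TPM + 1), on 1 scale from 0 to 9, for 40 other genes of steroid metabolism (rows, in 3 lists) in the 10 samples (columns). SLCO1B3 is seen in DU145 and PC3, SULT2B1 most in LNCaP, and CYP17A1 and HSD3B2 are dark throughout.

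In DU145 and PC3 against the other lines, 12 of the 24 were higher and 7 lower, with a median of 0.33. The shares of all genes were 51.9% and 22.5%, with a median of 0.40, and under quantile normalization and median-ratio scaling 11 of the 24 were higher and 11 lower. SLCO1B3, an uptake carrier for steroid conjugates, was at 7.05 and 9.21 TPM in DU145 and 14.55 and 11.53 in PC3, and at 0.04 or less in the other 6 samples, so it passed the filter through those lines alone. The counts hold other genes that entered the test through a line where they are high. SLCO2B1 (0.52) reached 1 TPM in DU145 alone and HSD17B1 (-0.23) in LNCaP alone. SULT2B1 (-0.92) reached it in LNCaP and in DU145 repeat 1. PAPSS2, which makes the sulfate donor, was higher by 2.95 and HSD17B14 by 2.36 (limma adjusted p = 5e-07 and 9.3e-05). HSD17B8, HSD11B2, which inactivates cortisol, and the sulfotransferase SULT1A1 were lower at -2.56, -2.53 and -2.26.

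Between PC3 and DU145, 10 were higher in PC3 and 5 lower, with a median of 0.44, against 25.5% and 23.8% of all genes and a median of 0. The largest were HSD17B14 (1.46), HSD17B8 (1.37) and HSD17B12 (1.10), which elongates fatty acids, and in the other direction SULT1A1 (-1.89), HSD17B11 (-1.53) and the carrier SLCO2B1 (-1.14), which reached 1 TPM in DU145 alone and so entered the test through the line where it is high. LNCaP exceeded DUCAP and VCAP in 15 and was lower in 3, against 49.2% and 15.5% of all genes, with a median of 1.60 against 0.46. Under quantile normalization 14 were higher and 6 lower, under median-ratio scaling 14 and 5, and without mitochondrial genes 14 and 4. The medians were then 0.98, 0.98 and 1.34, against 0, 0 and 0.26 over all genes. The 15 include HSD17B1 and SULT2B1, which reached 1 TPM in LNCaP and, for SULT2B1, in 1 sample of DU145, and so entered the test through the line where they are high. The 6 tested genes of synthesis from cholesterol were among the 15, but POR, the electron donor of microsomal P450 enzymes (0.45, adjusted p = 0.048, limma), lost its call under all 3 rescalings and turned to -0.16 and -0.20 under quantile normalization and median-ratio scaling. They were led by FDXR, which passes electrons to the mitochondrial P450 enzymes, at 25.00 and 27.08 TPM in LNCaP and 0.90 to 2.52 in DUCAP and VCAP. SULT2B1, which sulfates cholesterol, was at 14.89 and 14.61 TPM in LNCaP and 0.19 or less in DUCAP and VCAP. HSD17B10 was higher by 2.52, and HSD17B11, PAPSS2 and PAPSS1 were lower at -2.11, -2.04 and -0.78.

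DUCAP and VCAP differed in 4 of the 24, 2 higher and 2 lower in DUCAP, against 4.24% and 14% of all genes. CYB5A, the cytochrome that aids CYP17A1, was higher in DUCAP by 1.19 (limma adjusted p = 0.0014) and HSD17B8 by 0.60 (adjusted p = 0.038). RDH11, a retinal reductase, was lower at -1.09 (adjusted p = 0.0045) and FDXR at -0.76 (adjusted p = 0.013), the latter lost under quantile normalization (-0.52, adjusted p = 0.051).

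The genes whose levels ran most like each enzyme over the 10 samples were found by Pearson's r of log2(TPM + 1), as a description, since the 10 samples come from 5 lines. SRD5A1 ran with KLHL36 (r = 0.997), AC004151.1 (0.994) and MIEF2 (0.992), and SRD5A3 with APMAP (0.989), KLHDC3 (0.988) and PPCS (0.988). AKR1C3 ran with AKAP13 (0.973), LGR4 (0.969) and DPF2 (0.968). AKR1C1 ran with the cytokine genes IL24 (0.982) and IL6 (0.977) and with AL359834.1 (0.963), and AKR1C2 with AL139289.1 (0.981), B4GALT1 (0.980) and AL358472.2 (0.959). HSD17B2 ran with AL121749.1 (0.998), TENM4 (0.998) and ST6GAL2 (0.997), HSD17B4 with TLL2 (0.982), AL512274.1 (0.974) and EDA (0.965), HSD17B6 with AC244197.2 (0.988), CACNA1B (0.977) and CYCSP34 (0.977), and STS with HIPK1 (0.981), ZMYM4 (0.960) and PIK3C2A (0.958). HSD17B2, AL121749.1, TENM4 and ST6GAL2 were all at 0.40 TPM or less outside PC3, so their r only set PC3 apart from the other lines. IL24, IL6 and AL359834.1 were at 0.03 TPM or less in LNCaP, DUCAP and VCAP. Among the enzymes themselves, r was 0.751 for SRD5A1 and SRD5A3, -0.861 for SRD5A3 and AKR1C3, and 0.517 for AKR1C1 and AKR1C2.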

How the data were processed

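RNA selected by poly(A) from 5 untreated cell lines, 2 biological repeats each, was sequenced as stranded libraries. The deposited values are TPM per gene symbol, which the authors made with RSEM 1.3.3 after STAR 2.7.2b on GRCh38. The submitters' processing notes also name FastQC 0.11.9 and Trim Galore 0.6.5. TPM sums were 982880 to 991998 per sample and keep no depth, so no count test was possible.

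Of 60642 genes, the 17520 that reached 1 TPM in 2 samples or more were fitted as log2(TPM + 1) with limma 3.58.1, 1 coefficient per line and a trend in the prior variance. The 4 contrasts and the F test were two-sided at a Benjamini-Hochberg adjusted p of 0.05 over all genes tested. Fold changes on this scale understate those of low genes.

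The enzymes and gene lists were chosen with earlier results of these data known. Named genes are all 10 enzymes, the 3 largest called increases and decreases of the 40 pathway genes per contrast, and the 3 genes most like each enzyme. Alternatives were other pseudocounts, filters and scalings, a repeat block, a 2-fold threshold, AKR1C1 and AKR1C2 summed, and each sample left out. The labels call the repeats biological and number them, but say no more of how they differ, so p-values measure only the spread between these samples. Promoter windows and coordinates came from RefSeq on GRCh38.p14 and coding sequences from GENCODE transcripts. Proteins were not used here.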

Additional observations from a re-analysis of the deposited data

Results flagged for a closer look

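HSD3B1 was examined with the other enzymes for samples far from the rest of their group. In DUCAP repeat 2 it stood at 0.60 on the log2(TPM + 1) scale (0.52 TPM), while the other 5 samples of LNCaP, DUCAP and VCAP lay at 0.12 to 0.30, a gap of 0.637 of the range of the 6. In DU145 repeat 1 it stood at 0.30 (0.23 TPM), while the other 3 samples of DU145 and PC3 were listed at 0. Of 20 groups examined 2 stood out, where chance gives about 1. Both values lie below the 1 TPM filter, and each group joins different lines, so it was not uniform to begin with.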

How the results depend on the processing

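The SRD5A1 calls, and the low AKR1C3 and HSD17B6 of LNCaP, kept direction and call under every alternative except the 2-fold threshold, which ended SRD5A1 in PC3 against DU145. Under quantile normalization the log2 difference was -0.045 for SRD5A3, -0.27 for AKR1C3 and -0.32 for STS in DU145 and PC3 against the rest, -0.44 for HSD17B4 and -0.075 for STS in LNCaP, and 0.0088 for SRD5A1 and 0.22 for AKR1C1 in DUCAP against VCAP. Under median-ratio scaling it was -0.19 for AKR1C3 and -0.15 for STS in the first contrast, -0.53 for HSD17B4 and -0.0049 for STS in LNCaP, and 0.013 for AKR1C1 in DUCAP against VCAP, where 2 enzymes passed. These scalings moved the median of all genes from 0.40 to -0.07 and 0.02 in the first contrast and from 0.46 to 0 in LNCaP. Rescaled without mitochondrial genes, STS was at -0.0024 in the first contrast and HSD17B4 at -0.17 in LNCaP. A 2-fold threshold left 6144, 4781, 6585 and 1347 genes in the 4 contrasts and 3 enzymes in PC3 against DU145. With AKR1C1 and AKR1C2 summed, the difference was 0.62 in LNCaP and 0.23 in DUCAP against VCAP. The cause of these shifts was not tested.

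Leaving out 1 sample gave 1373 to 4819 genes and 0 to 1 enzymes in DUCAP against VCAP, the lowest without DUCAP repeat 1 and the highest without DU145 repeat 1. It moved AKR1C3 from -0.019 to 0.64 in the first contrast and from -0.73 to 0.59 in PC3 against DU145, HSD17B4 from -0.019 to 0.27 in LNCaP, and AKR1C1 from -0.30 to 0.14 and SRD5A3 from -0.0053 to 0.47 in DUCAP against VCAP. With a left-out sample, the lone repeat of a line was assumed to vary like the others.

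With the repeat number as a block, 13007, 8525, 11289 and 2939 genes passed in the 4 contrasts, and STS in LNCaP lost its call (0.46, adjusted p = 0.066), while no other call of an enzyme changed. Samples of the same repeat number did not deviate together (mean r 0.00922 over 10 pairs of lines, -0.191 to 0.249), so the repeat numbers were not taken as pairs. The sample labels also carry a culture number, which differs from the repeat number for samples of DU145 and PC3. Pairing by that culture number was not tested.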

Other observations

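Pseudogenes of the enzymes were low. SRD5A1P1 was at 0.25 TPM or less, STSP1 was listed at 0 in every sample, and the AKR1C pseudogenes were at 0.29 TPM or less.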
